A study of Mus musculus with 2 samples.

Results

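The genes of enteric glia and Schwann cells Sox10, Foxd3, Erbb3, S100b, Fabp7 and Gfap, were examined in single-cell RNA sequencing of the mouse esophagus, the gastroesophageal squamocolumnar junction (GE-SCJ) and the stomach. The 6 genes were taken by name from the 19550 genes of the count matrix, and all 6 were present. Their levels were read in the 419 of 7808 cells that the authors labelled Neural, and the cells of the other 8 labels served as background. The animals were wild-type C57BL/6 mice, with 6 embryos at E15, 2 at E19, 2 pups at day 2 after birth and 3 adults aged 8 weeks. Mice of a stage were pooled, and each region and stage received its own multiplexing oligo before all cells were run together. There was therefore 1 pooled sample for each of 11 groups. The adult stomach, the last of 12 combinations, was excluded by the authors because no cell was assigned its multiplexing oligo. With 1 sample a group there is no test between groups. Every interval given is an exact 95% interval for counting error only (Poisson for levels, Clopper-Pearson for shares). Intervals of levels and ratios leave out the spread of a gene between cells, and the spread between mice is unknown.

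Enteric glia and Schwann cells both descend from the neural crest, and the transcription factor SOX10 is kept in both lineages after the neurons of the gut wall have lost it. ErbB3 is the receptor through which neuregulins from axons act on Schwann cells and their precursors, and FoxD3 is a repressor that holds neural crest cells in a multipotent state. S100B, FABP7 (brain lipid-binding protein) and GFAP are a calcium-binding protein, a fatty acid carrier and an intermediate filament that are widely used as markers of glia of the gut and the brain.

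The genes lie apart in the genome (GENCODE M21 annotation, build GRCm38): Sox10 at chr15:79154908-79165240 on the minus strand, Foxd3 at chr4:99656299-99658622 on the plus strand, Gfap at chr11:102887336-102900912 on the minus strand. Chromosome 10 holds the other members, with Fabp7 at chr10:57784881-57788450 and S100b at chr10:76253853-76261159 on the plus strand and Erbb3 at chr10:128567523-128589652 on the minus strand. The promoters of Fabp7 and S100b are shown because these 2 genes had the largest differences between stages among the members with enough UMIs for a ratio. Each runs from 250 bases before to 50 bases after the start of the gene in RefSeq (GRCm38.p6, plus strand for both), at chr10:57784673-57784972 for Fabp7 and chr10:76253586-76253885 for S100b. Capitals mark matches to CCAAT on either strand (ATTGG on the strand printed).
Fabp7: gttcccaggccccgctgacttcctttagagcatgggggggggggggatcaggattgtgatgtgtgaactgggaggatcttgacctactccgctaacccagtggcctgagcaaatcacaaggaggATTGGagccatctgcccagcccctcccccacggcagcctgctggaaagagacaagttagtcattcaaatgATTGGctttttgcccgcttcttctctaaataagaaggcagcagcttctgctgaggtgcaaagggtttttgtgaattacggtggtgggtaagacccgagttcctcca
S100b: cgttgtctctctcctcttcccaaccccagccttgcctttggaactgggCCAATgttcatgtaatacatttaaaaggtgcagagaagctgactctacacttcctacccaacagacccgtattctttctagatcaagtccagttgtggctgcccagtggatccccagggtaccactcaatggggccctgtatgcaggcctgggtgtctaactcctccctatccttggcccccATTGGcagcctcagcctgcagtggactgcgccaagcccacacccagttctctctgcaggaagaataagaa
Both promoters held 2 such matches, and 37.4% of the 32851 RefSeq promoters of this length hold at least 1. The promoters of Foxd3 and Gfap, the other members listed there, held none. ACAAAG (in 18.7% of promoters), ACAATG (12.6%) and TATAAA (13.6%) were in none of the 4 member promoters on either strand. These matches are letters and not binding sites. Sox10 and Erbb3 were not matched.

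Neural cells were the shallower part of the data. A group held 143 to 1403 cells and 2302227 to 20070615 UMIs (unique molecular identifiers, the count of captured transcripts) in all labels together. Neural cells numbered 88, 11, 24 and 12 in the esophagus at E15, E19, pup and adult, 42, 74, 15 and 1 at the GE-SCJ, and 72, 60 and 20 in the stomach at E15, E19 and pup. The median Neural cell had 9896 UMIs at E15, 7410 at E19, 4331 in pups and 1796 in adults, so shares of positive cells across stages are given also after thinning each cell to 3000 UMIs. The Neural label was made by clustering these same counts, so a higher level in Neural than elsewhere describes how the cells were labelled. Markers of other cells were at most 651 CPM (CPM is the share of a gene in all UMIs of a group, in parts per 1e+06) in any Neural group, summed over a list, but for 2 of the 13 lists. The 5 fibroblast markers (Col1a1, Col1a2, Dcn, Pdgfra and Lum) summed to between 0 CPM in the single adult GE-SCJ cell and 5756 CPM in the pup stomach, against 17386 CPM in Stromal cells. The 3 erythroid genes summed to 6859 CPM at the GE-SCJ at E19 and 4813 CPM in the pup stomach, and to 247 CPM in the esophagus at E15. The immune marker Ptprc and the adipocyte markers Plin1 and Cidec were at 0 in Neural cells.

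Of the 6 genes, Sox10, Foxd3 and Fabp7 were close to restricted to the Neural label, S100b and Gfap were less so, and Erbb3 had most of its UMIs elsewhere. Sox10 had 892 UMIs in Neural cells, which is 238 CPM (223 to 254) and 94.1% of all its UMIs, and 290 of the 419 cells (69.2%) held at least 1. Foxd3 stood at 381 CPM (361 to 401), with 96.2% of its UMIs in Neural cells and 312 positive cells (74.5%). Both transcription factors were at 0.54 CPM over the other 8 labels together. Fabp7 was the most abundant member in UMIs, at 1534 CPM (1495 to 1574) in Neural cells with 331 positive cells (79.0%), against 3.56 CPM elsewhere. Its UMIs were uneven among cells, with a median of 12 in a positive Neural cell and 165 in the highest. The next label for Fabp7 was Endothelial at 10.1 CPM, whose interval overlapped that of Stromal cells at 7.43 CPM. Gfap was sparse everywhere, with 32 UMIs in 21 Neural cells (8.54 CPM) and 15 UMIs in all other cells (0.14 CPM). UMI counts aside, no level is compared between genes here, since capture differs between genes.

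Erbb3 and S100b had clear signal outside the Neural cells. Erbb3 stood at 190 CPM (176 to 204) in Neural cells, and only 15.4% of its 4608 UMIs came from them. Columnar Epithelial cells held 3100 Erbb3 UMIs at 71.7 CPM (69.2 to 74.3), and 72.3% of these cells were positive at a median depth of 25118 UMIs. That share was above the 64.7% of Neural cells, whose CPM was higher and whose median depth was 7900 UMIs. Squamous Epithelial cells followed at 46.9 CPM (42.8 to 51.3), and the small Squamous Epithelial-2 label of 40 cells had 82.9 CPM (60.7 to 111), which overlapped the columnar interval. Immune cells, a label that should lack the gene, gave 7.97 CPM and 8.19% positive cells at a median of 8267 UMIs, and Stromal, Endothelial and Smooth Muscle cells were between 4.33 and 5.39 CPM.

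S100b stood at 117 CPM (107 to 129) in Neural cells, where 197 cells (47.0%) were positive, and 62.5% of its UMIs came from them. Most of the rest came from Stromal cells, with 205 UMIs at 6.32 CPM (5.48 to 7.24) in 158 of 3442 cells (4.59%). The Immune background for S100b was 0.80 CPM (0.16 to 2.33) and 0.85% of cells. The stromal signal was prenatal in these libraries, at 5.62 CPM in the E15 cells and 7.30 CPM in the E19 cells. In the 311 pup and the 46 adult Stromal cells no S100b UMI was found, where 3 UMIs would have been 2.04 and 10.8 CPM. At 4258 UMIs the median pup Stromal cell was shallower than the E19 one (9111 UMIs). Of the 156 S100b-positive Stromal cells with fewer than 3 members, 2 also held Sox10.

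**Figure D1:**
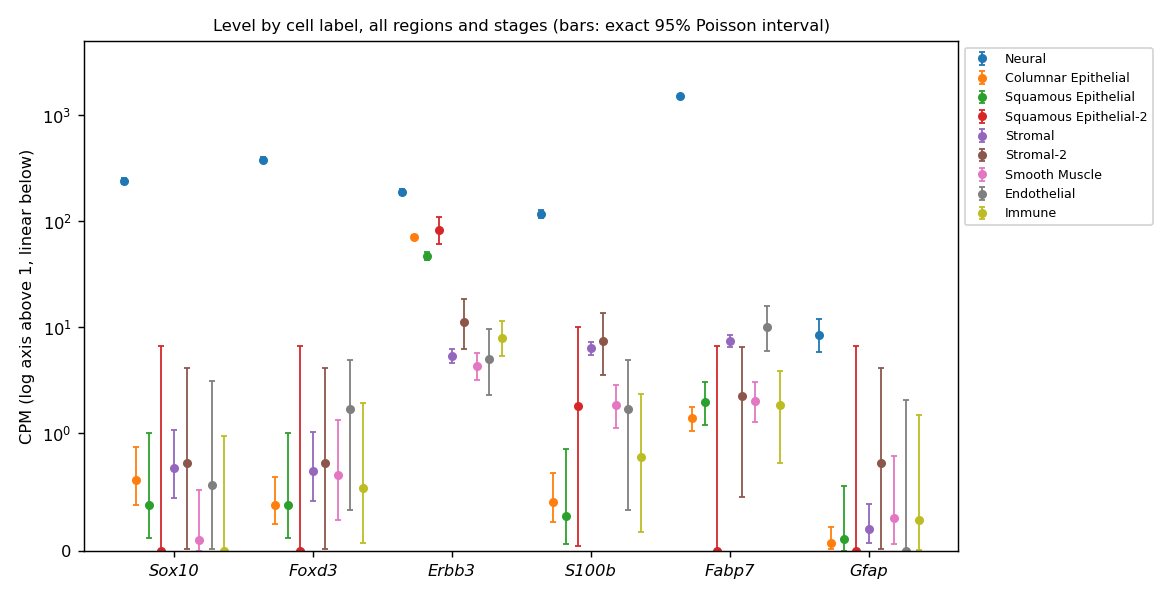
Level of each of the 6 genes in CPM (symmetric log axis, linear below 1) for the 9 author labels over all regions and stages, with exact 95% Poisson intervals as bars. Neural is the highest label for each gene, and for Erbb3 the 3 epithelial labels lie between 46.9 and 82.9 CPM.

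A cell with several members was almost always a Neural cell. At least 3 of the 6 genes were found in 304 of 419 Neural cells (72.6%) and in 9 of 7389 other cells (0.12%). Those 9 cells carried 4 Columnar Epithelial, 3 Stromal, 1 Smooth Muscle and 1 Squamous Epithelial labels. The most marked was an adult GE-SCJ cell labelled Stromal, with 3 Sox10, 59 Fabp7, 1 Erbb3 and 5 Foxd3 UMIs among 16167 in all. It held 59 of the 60 Fabp7 UMIs of the 15 adult GE-SCJ Stromal cells, and the only adult GE-SCJ cell labelled Neural also held 25 Fabp7 UMIs. Whether such cells are doublets was not tested.

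Within the Neural label the 5 abundant members marked largely the same cells. Of the 290 cells with a Sox10 UMI, 93.4% held Fabp7, 88.6% Foxd3, 81.0% Erbb3 and 58.3% S100b. In the 129 cells without Sox10 these shares were 46.5%, 42.6%, 27.9% and 21.7%, although their median depth was the greater (9137 against 7602 UMIs). All 21 Gfap-positive cells held both Sox10 and Fabp7, 18 held Foxd3, 17 Erbb3 and 14 S100b. None of the 6 genes was seen in 45 Neural cells, and all 6 were seen in 9. The cells without any member were 34 of 202 at E15, 10 of 145 at E19, 0 of 59 in pups and 1 of 13 in adults. Thinned to 3000 UMIs, at least 3 members were found in 57.7% of the 395 cells deep enough.

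**Figure D2:**
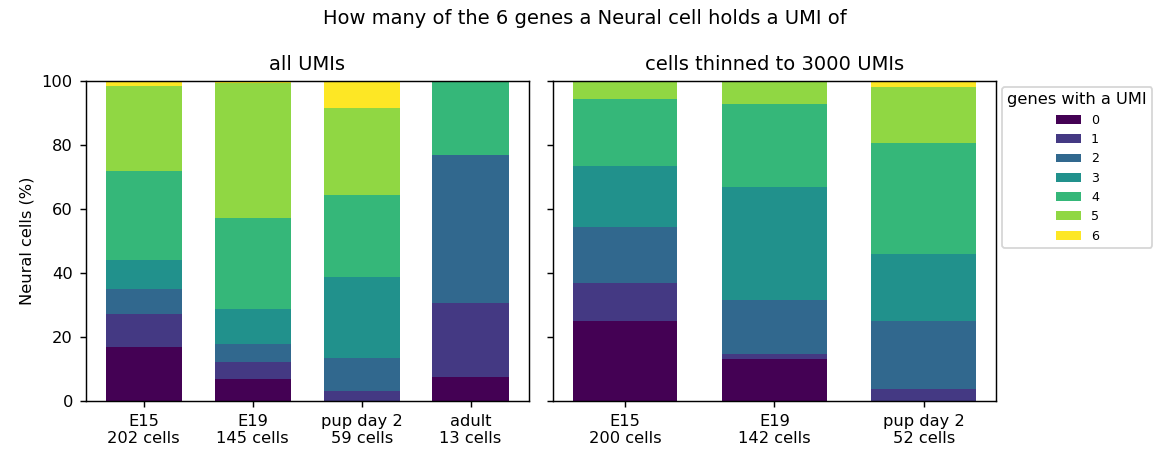
Share of Neural cells (percent, vertical axis) with a UMI of 0 to 6 of the genes at each stage, with all UMIs on the left and after thinning to 3000 UMIs on the right, where the 1 adult cell that was deep enough is left out. The share with none of the 6 genes at full depth is 16.8% at E15, 6.90% at E19 and 0 in pups.

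The cells without members were mostly cells with neuronal transcripts. Neural cells were divided by whether the 20 other glial genes or 16 neuronal genes had more UMIs, with none of the 6 members in either list. This gave 330 cells in a glial range, 88 in a neuronal range and 1 tie. The ranges are the ends of a score and not cell types, and in 50 cells the larger list had no more than 2 times the UMIs of the smaller. The neuronal range held 67 of 202 cells at E15, 21 of 145 at E19 and no cell of the 59 pup or 13 adult ones. Fewer neurons in the wall and fewer neurons surviving dissociation cannot be told apart here.

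All 5 members with at least 50 UMIs were over 2-fold higher in the glial than in the neuronal range, where 13.8% of all 8762 genes counted were higher and 8.34% lower. Sox10 stood at 327 CPM in the glial range against 23.1 CPM in the neuronal range, a log2 ratio of 3.77 (3.21 to 4.39). Fabp7 stood at 2118 against 115 CPM (log2 4.19) and Foxd3 at 511 against 55.4 CPM (log2 3.18). Erbb3 stood at 262 CPM in the glial range (696 UMIs), against 13 UMIs in the 88 cells of the neuronal range (an interval of 6.39 to 20.5 CPM, log2 4.35), and the latter was near the Immune background for this receptor. S100b stood at 163 against 6.46 CPM (log2 4.47). Gfap had 32 UMIs in the glial range and 0 in the neuronal range, which makes it at least 4.36-fold higher when 3 UMIs stand for the 0. Of these 32 UMIs, 19 came from pups, 9 from E19 and 4 from E15. The neuronal range held no pup or adult cell, so the 2 ranges also differ in stage. At E15 alone Sox10 stood at 316 against 21.1 CPM and S100b at 118 against 2.35 CPM (2 UMIs). The list and the members were chosen as genes of the same cells, so these ratios describe that choice.

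**Figure D3:**
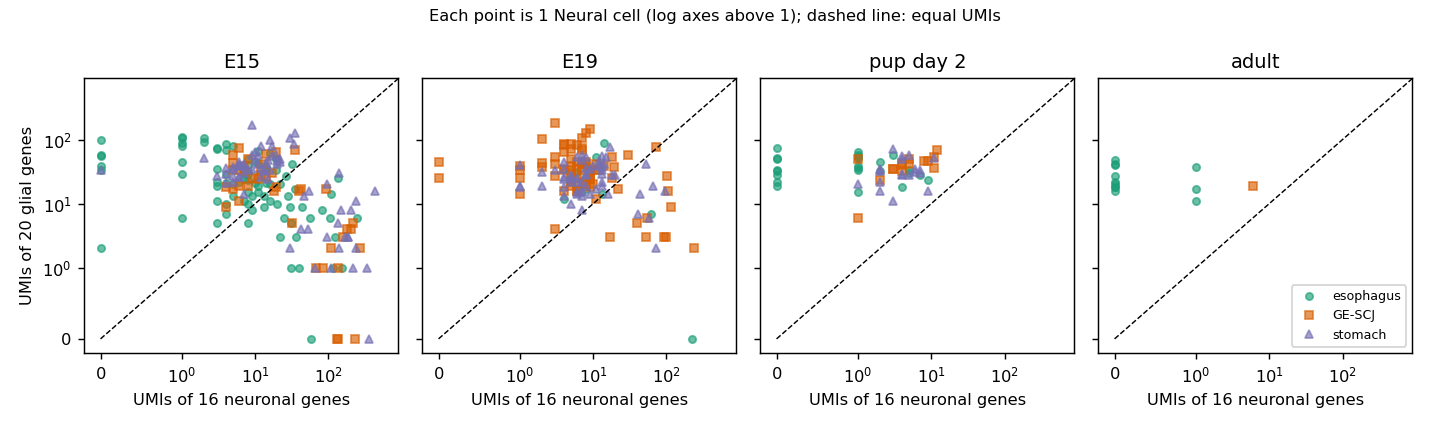
UMIs of the 20 other glial genes (vertical axis) against those of the 16 neuronal genes (horizontal axis) in each Neural cell, by stage, on symmetric log axes that are linear below 1, with the region as colour and shape. Cells below the dashed line of equal UMIs, 67 at E15 and 21 at E19, are absent in pups and adults.

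Across stages, S100b was higher in pups than at E15 in all 3 regions, with the E19 value between them. From E15 to pup, Sox10, Foxd3 and Erbb3 differed by less than 2-fold over all regions together. Fabp7 diverged between the regions after birth. Ratios were formed between groups of at least 20 Neural cells, except where a smaller number is stated, and are given as log2 with 1 UMI added to each sum. Over all genes counted the median log2 ratio of pup over E15 was -0.16 (esophagus alone -0.21, stomach alone -0.16), which sets the level against which the values below stand. In these sums, fewer cells of a kind and less RNA per cell cannot be told apart.

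Sox10, the lineage factor, stood in the esophagus at 253 CPM at E15, 276 at E19, 389 in pups and 347 in adults, the last from 8 UMIs. At the GE-SCJ it stood at 151, 279 and 321 CPM from E15 to pup, and in the stomach at 182, 276 and 311 CPM. The single adult GE-SCJ cell held 3 Sox10 UMIs. E15 was the lowest stage in each region, and the pup intervals overlapped those of E19 everywhere. Over all regions Sox10 was 1.71-fold higher in pups than at E15 (log2 0.78, 0.44 to 1.10) and 1.38-fold higher at E19 (log2 0.46). Among glial-range cells alone the pup ratio was 0.13 on the log2 scale (-0.21 to 0.45), from 316 CPM at E15, 336 at E19 and 343 in pups.

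Foxd3, a neural crest repressor, was also higher in pups than at E15 in each region. In the esophagus it stood at 399 CPM at E15, 287 at E19, 632 in pups and 174 in adults, where only 4 UMIs were counted. The GE-SCJ had 283, 474 and 615 CPM from E15 to pup, and the stomach 291, 420 and 431 CPM. The pup over E15 ratio was 0.76 on the log2 scale (0.50 to 1.01) over all Neural cells and 0.16 (-0.10 to 0.42) in the glial range, where the level was 498 CPM at E15 and 554 CPM in pups.

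Erbb3, the neuregulin receptor, stood in the esophagus at 178 CPM at E15, 174 at E19, 321 in pups and 304 in adults, the last from 7 UMIs. The GE-SCJ had 140, 229 and 349 CPM from E15 to pup. The stomach had 140, 243 and 181 CPM and was the only region where the pup value lay below that of E19, with overlapping intervals (107 to 285 in pups, 200 to 291 at E19). Erbb3 was 1.81-fold higher in pups than at E15 over all Neural cells (log2 0.86, 0.48 to 1.22) and 1.15-fold in the glial range (log2 0.21).

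S100b, the calcium-binding protein gene, had the steadiest difference between stages. It stood in the esophagus at 86.6 CPM at E15, 102 at E19, 223 in pups and 391 in adults. The adult value came from 9 UMIs in 5 of 12 cells, and its interval (179 to 742) overlapped that of pups (142 to 335). The GE-SCJ had 50.4, 148 and 293 CPM from E15 to pup and no UMI in the adult cell, where 3 UMIs would be 437 CPM. The stomach had 72.3, 177 and 341 CPM. With all Neural cells counted, each region had the same order of stages from E15 to pup. The intervals of pup and E15 then did not overlap in any region. Among glial-range cells of the esophagus they did overlap (103 to 168 CPM at E15, 142 to 335 in pups), and the ratio was 1.73-fold. In the esophagus the E19 value came from 11 cells, and its interval overlapped that of E15. Over all Neural cells S100b was 2.13-fold higher at E19 than at E15 (log2 1.09, 0.78 to 1.40) and 3.91-fold higher in pups (log2 1.97, 1.56 to 2.36). In the glial range it was 118 CPM at E15, 187 at E19 and 284 in pups, and the pup ratio was 2.43-fold (log2 1.28, 0.88 to 1.68). Positive cells at a fixed 3000 UMIs made up 19.5% at E15, 28.9% at E19 and 55.8% in pups, against 33.7%, 57.2% and 69.5% at full depth and 0.34% of thinned Immune cells.

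Fabp7, the fatty acid carrier, differed in course between the esophagus and the other regions. The stomach stood at 1167 CPM (1099 to 1238) at E15, 3111 (2954 to 3274) at E19 and 1986 (1719 to 2282) in pups. The GE-SCJ stood at 809, 1852 and 1579 CPM. The esophagus stood at 1302 CPM (1225 to 1381) at E15, 1699 (1450 to 1978) at E19, 321 (221 to 450) in pups and 43.4 CPM, a single UMI, in the 12 adult cells. The intervals of the pup esophagus lay below those of every other group but the adult esophagus.

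The esophagus and the stomach differed in opposite directions between E15 and pup. In the esophagus Fabp7 was 3.94-fold lower in pups (log2 -1.98, -2.52 to -1.49), from 1082 UMIs in 88 cells to 33 UMIs in 24 cells. In the stomach it was 1.71-fold higher (log2 0.77, 0.55 to 0.99), from 1097 UMIs in 72 cells to 198 UMIs in 20 cells. Between the regions, Fabp7 was 6.04-fold higher in the pup stomach than in the pup esophagus (log2 2.59, 2.06 to 3.16), while at E15 the log2 ratio was -0.16. In pups 20 of 20 stomach cells and 13 of 15 GE-SCJ cells held Fabp7, against 14 of 24 esophageal cells with at most 9 UMIs, and 1 of 12 cells in the adult esophagus. At 3000 UMIs the shares were 93.8% of 16 stomach cells and 59.1% of 22 esophageal cells. Of the other members with at least 50 UMIs, the pup log2 ratios of stomach over esophagus were -0.31 for Sox10, -0.54 for Foxd3, -0.79 for Erbb3 and 0.59 for S100b, each with an interval that included 0. Sparse Gfap had 11 UMIs in the pup stomach and 1 in the pup esophagus (log2 2.63, 0.46 to 5.83).

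The low pup level of the esophagus was also seen among glial-range cells, to which all pup cells belong. There Fabp7 in esophageal cells was 1991 CPM at E15, 2679 at E19 and 321 in pups, a log2 ratio of pup over E15 of -2.59 (-3.13 to -2.10). In the stomach it was 1804, 3582 and 1986 CPM, and the pup ratio was 0.14 (-0.08 to 0.36), so the higher pup level of the stomach was not seen in this range. The fibroblast gene Col1a2 was found in 19 of 24 pup esophageal and 11 of 20 pup stomach Neural cells. In the esophagus Fabp7 stood at 192 CPM in the 19 cells with Col1a2 and at 862 CPM in the 5 without, and in the stomach at 1894 and 2188 CPM. Without all cells holding Col1a2 the pup groups were 5 esophageal and 9 stomach cells, fewer than the 20 asked of a ratio, so these values have no interval and no direction is read from them. The pup log2 ratio of stomach over esophagus was then 1.28 for Fabp7, 0.93 for Sox10 and 0.081 for Foxd3, and the pup over E15 ratio of Fabp7 in the esophagus was -0.80. The part of stromal RNA in the low esophageal level was not tested.

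Gfap, the glial filament gene, stood highest in the pup stomach and GE-SCJ. It had 11 UMIs in 5 of 20 pup stomach cells (110 CPM, 55.1 to 197) and 7 UMIs in 3 of 15 pup GE-SCJ cells (97.8 CPM, 39.3 to 202). The pup esophagus had 1 UMI in 24 cells (9.72 CPM, 0.25 to 54.1). At E19 there were 5 UMIs in the stomach, 4 at the GE-SCJ and 0 in the 11 esophageal cells, and at E15 there were 4 in all 202 cells. Over all regions 19 UMIs in pups stood against 4 at E15, a log2 ratio of 5.02 (3.57 to 6.79) below the 50 UMIs asked of a gene to be counted. The adult esophagus had none in 12 cells, where 3 UMIs would be 130 CPM.

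**Figure D4:**
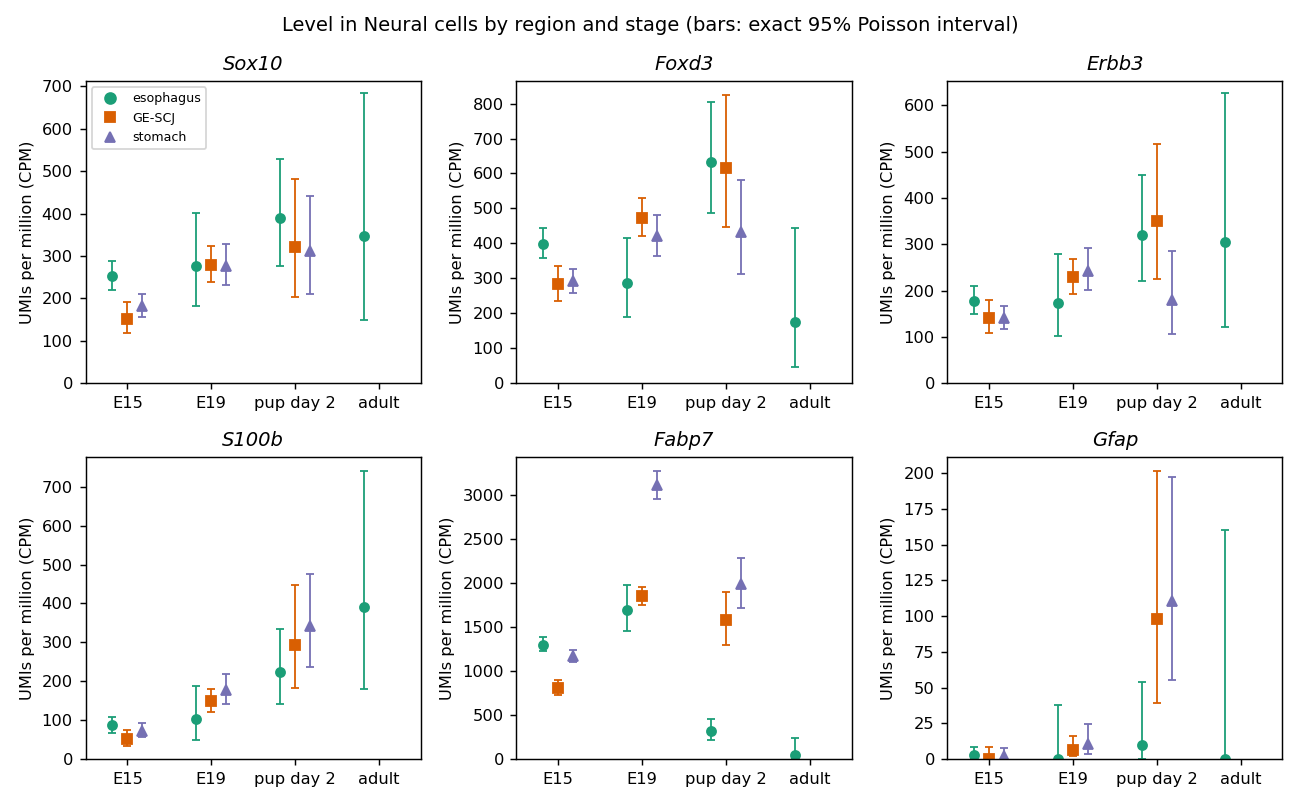
Level of each gene in Neural cells in CPM (vertical axis, linear) at E15, E19, pup day 2 and adult in the esophagus (circles), GE-SCJ (squares) and stomach (triangles), with exact 95% Poisson intervals; the single adult GE-SCJ cell is left out. Fabp7 is at 321 CPM in the pup esophagus and at 1579 and 1986 CPM in the other pup regions, while S100b is highest at the latest stage plotted in each region. The adult S100b value rests on 9 UMIs, and its interval overlaps that of the pup esophagus.

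The members past 2-fold are given here beside the share of all genes that passed. Of the 5 with at least 50 UMIs, S100b and Fabp7 were past 2-fold higher at E19 than at E15, as were 3.52% of all 8429 genes, and none was past 2-fold lower, where 2.24% of genes were. Neither passed 2-fold in the glial range, where the log2 ratios were 0.67 for S100b and 0.63 for Fabp7. There 182 of 6954 genes were past 2-fold higher and 121 lower. From E15 to pup only S100b was past 2-fold higher and none lower, against 11.7% and 16.8% of 7304 genes. In the esophagus S100b was past 2-fold higher and Fabp7 lower, against 12.1% and 19.8% of 3459 genes. In the glial range of the esophagus Fabp7 was still past 2-fold lower, but S100b was 1.73-fold higher (log2 0.79, 0.06 to 1.48). In that comparison 281 of 2327 genes were past 2-fold higher and 395 lower. In the stomach S100b was past 2-fold higher and no member lower, against 11.5% and 17.5% of 3901 genes. In pups Fabp7 alone was past 2-fold higher in the stomach than in the esophagus and none was lower, against 4.64% and 11.1% of 603 genes. At E15 none of the 5 was past 2-fold in either direction between these regions, where 2.45% of 5951 genes were higher in the stomach and 2.57% lower.

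Over all Neural cells, the shares of positive cells at a fixed depth followed the levels. Thinned to 3000 UMIs, Sox10 was found in 44.5% of 200 cells at E15, 56.3% of 142 at E19 and 65.4% of 52 in pups, against 64.4%, 73.8% and 76.3% with all UMIs. Foxd3 was found in 54.5%, 57.7% and 78.8% of the thinned cells, and Erbb3 in 33.5%, 50.7% and 57.7%. These cells include the neuronal range, which had Sox10 in 12 of 88 cells and held no pup cell. In the glial range, with all UMIs, Sox10 was found in 89.6% at E15, 84.7% at E19 and 76.3% in pups. Foxd3 was found there in 92.5%, 88.7% and 83.1%, and Erbb3 in 84.3%, 82.3% and 64.4%. Those glial-range shares were not thinned, and depth was lower at later stages. Thinned Immune cells gave 0 of 294 for Sox10 (0 to 1.25%), 0.68% for Foxd3 and 3.06% for Erbb3. All but 1 of the 13 adult cells were under 3000 UMIs, so the adult esophagus is known from 23028 UMIs in all.

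The other genes of glia and Schwann cells were mostly higher in pups than at E15, and the myelin genes Pmp22 and Mbp were highest in the adult esophagus. Of the 20 other glial genes, 18 could be counted between pup and E15, 14 were over 2-fold higher and none lower, with a median log2 ratio of 2.64. Among all 7304 genes counted, 11.7% were higher and 16.8% lower. In the glial range, which this list helped to set, 13 of the 18 were higher and Ednrb alone lower. There 601 of all 5543 genes counted were higher and 763 lower. All 6 of the countable Schwann cell and myelin genes were higher, with a median of 2.02, against -0.16 over all genes, and 4 of these 6 in the glial range. Over the same stages the fibroblast markers summed to 525 CPM at E15 and 4340 CPM in pups in Neural cells, and Stromal cells held Pmp22 at 314 CPM (2939 of 3442 cells), above the 224 CPM of all Neural cells. The part of stromal RNA in the Pmp22 levels was not tested. Pmp22, a protein of compact peripheral myelin, stood at 135, 225, 758 and 6514 CPM in the esophagus from E15 to adult and at 83.0, 139 and 391 CPM in the stomach from E15 to pup. Mbp, myelin basic protein, stood at 148, 133, 389 and 4299 CPM in the esophagus and at 77.6, 129 and 30.1 CPM in the stomach. It was also found in 41 of 88 neuronal-range cells and in 869 of 1540 Columnar Epithelial cells. Of the 73 Mbp UMIs in the E15 stomach, 39 were in glial-range cells, and the pup stomach had 3. In the adult esophagus 12 of 12 cells held Mbp and 10 of 12 held Pmp22. Egr2, a transcription factor of myelination, had only 2 UMIs in 1 of these 12 cells (86.9 CPM), fewer than the 3 UMIs that would be 130 CPM. In pups it was at 340 CPM in the esophagus and 371 CPM in the stomach. It was also found in 821 of 3442 Stromal and 657 of 1540 Columnar Epithelial cells. Among genes picked after their values were seen, the potassium channel gene Kcna1 was found in 12 of 12 adult esophageal cells (3213 CPM) and the junction gene Cldn19 in 6 of them and in no Neural cell of another stage. The single adult GE-SCJ cell held no UMI of Mbp.

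At E15 and in pups, where the esophagus and the stomach could be compared, several of these genes were higher in the esophagus. At E15 the log2 ratio of stomach over esophagus was -0.69 (-1.13 to -0.27) for Pmp22 and -1.37 (-1.95 to -0.81) for Egr2, and in pups -0.94 (-1.52 to -0.37) and 0.12 (-0.57 to 0.82). The fibroblast markers in these cells summed at E15 to 1074 CPM in the esophagus and 192 CPM in the stomach. In pups they summed to 4907 and 5756 CPM, and their part in these ratios was not tested. In pups the other glial genes Matn2, Kcna1, Scn7a and Fxyd1 were over 2-fold lower in the stomach, and none of the 14 that could be counted was over 2-fold higher. Of all 603 genes counted there, 4.64% were higher in the stomach and 11.1% lower. Kcna1 had 4 UMIs in the pup stomach and 59 in the pup esophagus. Ednrb, the endothelin receptor of enteric neural crest, and Ptprz1 were higher in the pup stomach within 2-fold, at 457 and 544 CPM in the esophagus and 812 and 913 CPM in the stomach. Metrn, a secreted glial factor, stood at 272 and 552 CPM.

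Apoe, a lipid carrier gene, was high in pups in all regions. It stood at 5062 CPM in the esophagus, 6498 at the GE-SCJ and 5325 in the stomach, from 692, 230 and 158 CPM at E15. Its pup ratio of stomach over esophagus was 0.073 on the log2 scale (-0.10 to 0.25). Apoe was not particular to Neural cells. Immune cells held 25203 Apoe UMIs in 298 of 354 cells, and Neural cells 4183 in 314 of 419 cells.

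**Figure D5:**
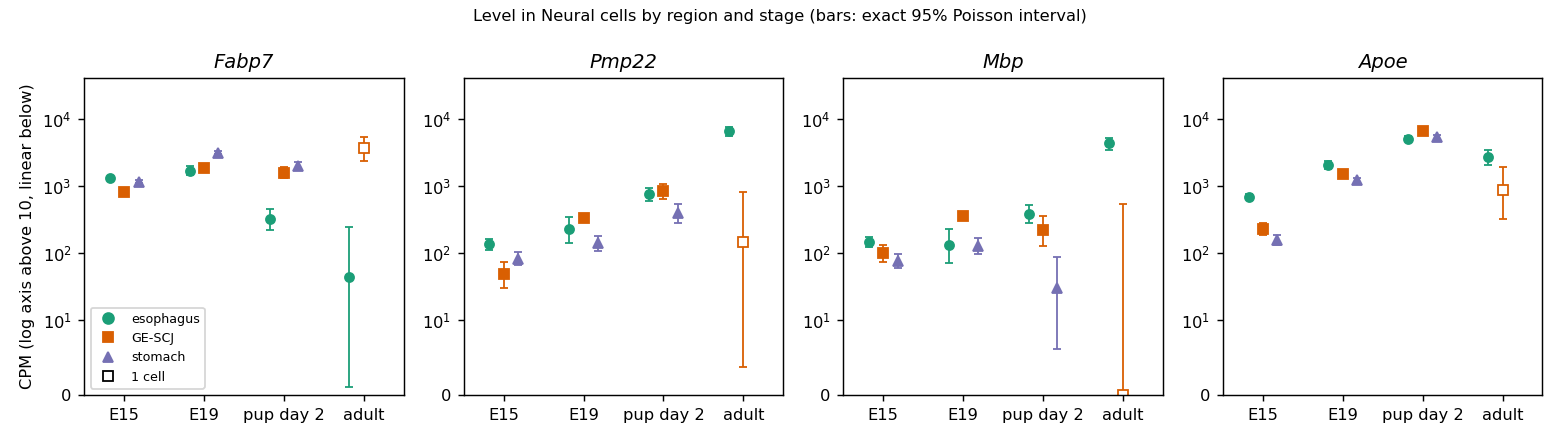
Levels of Fabp7, Pmp22, Mbp and Apoe in Neural cells in CPM (symmetric log axis, linear below 10) by stage and region, with exact 95% Poisson intervals and an open symbol for the single adult GE-SCJ cell. In the esophagus Fabp7 goes from 1302 CPM at E15 to 43.4 CPM in adults while Pmp22 goes from 135 to 6514 CPM.

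Of the partners of Erbb3, Neural cells held little. Erbb2, the co-receptor with which ErbB3 signals, had 81 UMIs in Neural cells (21.6 CPM), 76 of them in the glial range. It was 13.9 CPM at E15, 28.8 at E19 and 43.8 in pups, while Columnar Epithelial cells had 37.8 CPM and Squamous Epithelial cells 55.7 CPM over all stages. Erbb4 and the ligand Nrg4 had no UMI in Neural cells. Nrg1, the ligand that sustains Schwann cells, had 15 UMIs there (4.01 CPM) and was highest in Stromal cells, at 30.9 CPM from 1002 UMIs, and in Smooth Muscle cells at 15.9 CPM. Nrg3 had 70 UMIs in Neural cells, 69 of them in the neuronal range, and Egfr had 10. Between pup and E15 only Nrg3 of the 7 genes could be counted, with 0 UMIs in pups against 57.

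Genes of enteric neural crest progenitors were split. Of 8 that could be counted between pup and E15, 2 were over 2-fold higher (Gfra1 and L1cam) and 4 lower, Ret and Sox8 among them. Of all 7304 genes counted, 11.7% were higher and 16.8% lower. The GDNF receptor Ret had 297 UMIs in the 202 E15 cells and 0 in the 59 pup cells, and Sox8, a relative of Sox10, had 119 and 4. Over all stages 286 Ret UMIs were in the neuronal range, which held no pup cell, and 84 in the glial range. In glial-range cells at E15 Ret had 11 UMIs in the esophagus, 15 at the GE-SCJ and 50 in the stomach. Sox8 had 152 UMIs in the glial range and 20 in the neuronal range. Gfra1, the co-receptor of Ret, was 4.06-fold higher in pups (log2 2.02), and Zeb2 differed by 0.64 on the log2 scale. Over all Neural cells of pups Sox10 and Foxd3 were at or above their E15 level, as given above.

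The neuronal list had 13 of 14 genes lower in pups than at E15 and none higher, with a median log2 ratio of -3.66. Among all 7304 genes counted, 16.8% were lower and 11.7% higher. Elavl4, an RNA-binding protein of neurons, went from 615 to 25.5 CPM, Stmn2 from 575 to 54.7 and Gap43 from 420 to 113. Hand2, a factor of autonomic neurons, was within 2-fold (563 and 478 CPM). It was not particular to neuronal cells here, being found in 254 of 330 glial-range cells and 616 of 1027 Smooth Muscle cells. In the glial range 2 of 5 countable neuronal genes were lower (Uchl1 and Map2). This list also helped to set that range, so the count depends in part on the cut. Of the 4 countable transmitter genes 3 were lower (Nos1, Tac1 and Gal). Tac1 and Gal had no pup UMI, and Npy, at 13.9 CPM at E15 and 40.1 in pups, and Sst, at 21.5 and 14.6, were sparse.

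Proliferation genes were found in many Sox10-positive cells before birth. All 6 proliferation genes were over 2-fold lower in pups than at E15, over all Neural cells and in the glial range. Among all genes counted, 16.8% of 7304 were lower over all Neural cells and 763 of 5543 in the glial range. In Sox10-positive cells Mki67 stood at 277 CPM at E15 (50 of 130 cells positive), 107 at E19 (20 of 107) and 9.08 in pups (2 of 45), and Top2a at 494, 203 and 9.08 CPM. Pcna was 199 and 62.0 CPM and Cdk1 117 and 32.8 CPM in all Neural cells at E15 and in pups.

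Genes of astrocytes and radial glia, of glial activation and of the S100 family were mostly higher in pups. Between pup and E15, 11.7% of all 7304 genes counted were over 2-fold higher and 16.8% lower. Of 4 countable astrocyte genes 3 were over 2-fold higher and none lower, with Vim at 858 CPM at E15 and 2757 in pups and Cryab at 206 and 864. Nes was at 27.4 and 18.2 CPM. Jun, Fos and Egr1, the 3 genes of the activation list, were all higher, with Fos at 1541 and 8578 CPM, Egr1 at 1394 and 4967 and Jun at 1005 and 3188. These genes are also known to respond to tissue dissociation, whose part was not tested. Of 6 countable Fabp and S100 genes 4 were higher (S100a1, S100a6, S100a11 and S100a4) and none lower. S100a6 went from 273 to 1306 CPM and S100a11 from 156 to 419, while S100a10 was at 230 and 449. Of 3442 Stromal cells, 3224 held Vim, 3227 S100a6, 3225 S100a11 and 2844 S100a10. The part of stromal RNA in these levels was not tested. Fabp5, another carrier of the family of Fabp7, was at 454 CPM at E15 and 299 in pups (log2 -0.59, -0.93 to -0.26). It stood in pups at 262 CPM in the esophagus and 331 in the stomach (log2 0.33, -0.44 to 1.10).

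Neural cells with and without a Sox10 UMI differed most in neuronal genes. Among 8761 genes counted, the 10 with the largest ratios toward cells without Sox10 were Vip, Myt1l, Stmn4, Cck, Tagln3, Tac1, Nyap2, Slc7a14, Nrg3 and Stmn2. Vip, a transmitter of enteric motor neurons, had 50 UMIs in the 129 cells without Sox10 and 0 in the 290 with it, and Stmn2 had 1490 and 67. The 10 genes with the largest ratios toward Sox10-positive cells were Hmga2, Fkbp10, Ntng1, Ecrg4, E2f8, Hba-a1, Cdc25c, Ldb2, Atp10b and Hbb-bs. Hmga2, a chromatin protein of embryonic cells, had 131 UMIs with Sox10 and 2 without. The cell cycle genes E2f8 and Cdc25c had 100 and 55 UMIs with Sox10 against 4 and 2. Hba-a1 and Hbb-bs are hemoglobin genes, at 459.5 and 1411 CPM with Sox10 and 48.3 and 168 CPM without. Of the 3560 Hbb-bs UMIs in Sox10-positive cells, 3 GE-SCJ cells at E19 held 424, 577 and 1770 and 1 pup stomach cell held 351, against a median of 1 UMI, and the origin of these UMIs was not tested.

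Across 55 groups of at least 20 cells (label by region by stage, 7 of them Neural), each member was set beside 15866 genes to find those with the most similar level. Likeness was measured as Pearson's r on log2 levels with 10 CPM added, and the groups share 1 run and its depth, so r is a description only. Sox10 was most like Gm12688 (r = 0.99), Ttyh1 (0.98) and Cmtm5 (0.98), and Foxd3 had the same 3 genes at 0.99, 0.97 and 0.97. Gm12688, annotated on the opposite (minus) strand, has its start 1316 bases from the start of Foxd3 on chromosome 4 and stood at 137 CPM in Neural cells. S100b was most like Cmtm5 (0.97), Ttyh1 (0.96) and Tmprss5 (0.96). Among the genes most like Fabp7 were Gm12688 (0.97) and Nrcam (0.97). Erbb3, with its epithelial signal, was most like Kif21a (0.87), Sox2 (0.82) and Ick (0.81), and Gfap was most like Gm26660 (0.87), Frzb (0.85) and Kcnj10 (0.85). Gfap had only 47 UMIs over all cells, so every r given for it rests on few UMIs. Among the members, Sox10 and Foxd3 were closest (r = 0.997) and Erbb3 and Gfap farthest (r = 0.44). Sox10 and Foxd3 were each at 0.54 CPM over the other labels, so their r mostly sets Neural against other groups. It says little of likeness among the 7 Neural groups. With Spearman's rho in place of r, 1 of the 3 genes named for Erbb3 (Kif21a) and none of those named for the other members was again among the first 3. With 1 CPM added in place of 10, the genes shared were 2 for Sox10, 0 for S100b and 1 for each other member.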

How the data were processed

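One 10x Genomics 3′ v3.1 CellPlex library of mouse tissue was used, with a matching multiplexing tag library. The authors aligned and counted reads with Cell Ranger 6.1.1 (multi pipeline, 10x mouse reference of build GRCm38), removed cells by gene, UMI and mitochondrial limits, clustered with Seurat and labelled the clusters; the deposited matrix holds raw UMI counts of 19550 genes in 7808 cells. The tag of a cell in the deposited cell table equalled that in the tag assignment list, and its UMI total equalled the sum over the matrix, in 7808 of 7808 cells. Groups were set by the tag. The authors also deposited each cell's mitochondrial share in percent, which served a quality alternative here. No doublet caller was run here. Promoters are from RefSeq, and 4 of the 6 members were matched.

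UMIs were summed over the cells of a label, region and stage and divided by the total UMIs of those cells (CPM), with exact 95% Poisson intervals. Shares of cells with at least 1 UMI have Clopper-Pearson intervals, and a sum of 0 is given with the level of 3 UMIs. Ratios have 1 UMI added to each sum and an exact interval conditional on both counts, need 20 cells a group (fewer in an alternative, as stated) and are called past 2-fold over genes with at least 50 UMIs. Depth was 2302227 to 20070615 UMIs a group. Thinning drew 3000 UMIs a cell (seed 1), and 24 Neural cells were shallower. Each group is 1 pool of mice, so no test was run. The 6 members and the gene lists were chosen with earlier results of these data known. Named were the members, the 4 most abundant Neural genes of each list, the 3 genes most like each member and the 10 genes with the largest ratio either way by Sox10; other names are those of short counts or are said to have been chosen after their values. Some genes that these rules name are not reported here, but the counts of a list cover all its genes. Scripts were tested on simulated data. Alternatives covered library size, depth, single cells, thresholds and subsets of cells. Python 3.11.15, numpy 2.4.6, scipy 1.17.1 and pandas 2.3.3 were used.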

Additional observations from a re-analysis of the deposited data

Results flagged for a closer look

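Fabp7 differed in opposite directions between E15 and pup in 2 regions of the gut. Esophageal Neural cells had a log2 ratio of pup over E15 of -1.98, and stomach Neural cells one of 0.77. Among glial-range cells alone the ratios were -2.59 in the esophagus and 0.14 (-0.08 to 0.36) in the stomach, so the opposite direction was not seen there. Each region had 1 pooled sample a stage, so the difference between the regions was not tested. Beside it, the fibroblast markers summed in the pup Neural cells to 4907 CPM in the esophagus and 5756 CPM in the stomach, and to 1074 and 192 CPM at E15, and their part in the result was not tested.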

How the results depend on the processing

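No paired analysis was possible because each region and stage is 1 pooled sample with no replicate. None of the results changed sign where it had been past 2-fold, and of the values that answer a comparison 223 stayed within the counting error or 1.5 times and 51 moved. Among the log2 ratios, most moves came from restricting to glial-range cells, an alternative added after seeing the data. The removal of cells with a Col1a2 UMI and of cells with 5 or more Hbb-bs UMIs was also added then (the last moved none of the 30 values). The other moves were in the counts of genes past 2-fold, given below, and in the share of cells with at least 3 members. In the glial range the log2 ratios of E19 over E15 were 0.091 for Sox10, 0.67 for S100b, 0.63 for Fabp7, 0.22 for Erbb3 and 0.074 for Foxd3, and those of pup over E15 were 0.13, 1.28, -0.53, 0.21 and 0.16. In the esophagus the pup ratios there were 0.078 for Sox10, -2.59 for Fabp7, 0.27 for Erbb3 and 0.17 for Foxd3, and in the stomach 0.20 for Sox10, 1.62 for S100b, 0.14 for Fabp7 and 0.018 for Foxd3. This range holds fewer E15 cells of neuronal transcripts by construction. Without cells holding Col1a2 the ratio was 0.17 for Foxd3 (E19 over E15), 0.43 for Fabp7 and 0.29 for Foxd3 (pup over E15), -0.80 for Fabp7 in the esophagus and 1.06 in the stomach, and stomach over esophagus in pups was 0.93 for Sox10, 1.28 for Fabp7 and 0.081 for Foxd3, where the pup groups were 5 esophageal and 9 stomach cells; the cause was not tested. Without the 5% of cells with most UMIs Fabp7 was 1.11 (E19 over E15) and 1.13 (stomach, pup over E15). Cells with at least 3 members were 57.7% after thinning and 57.8% when 2 UMIs were asked of a gene.

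Counts of genes past 2-fold depend on the UMIs asked of a gene, since fewer or more genes are then counted. With 20 and 200 UMIs in place of 50, E19 over E15 gave 552 and 109 higher genes and 363 and 43 lower, and weighting the regions equally gave 69 lower. Pup over E15 gave 1480 and 246 higher and 398 lower at 200 UMIs, with 747 lower at equal weight. In the esophagus 1043 and 75 were higher and 1253 and 161 lower, and in the stomach 1216 and 59 higher and 1224 and 166 lower. Stomach over esophagus in pups gave 150 and 3 higher and 188 and 13 lower. Of the other values 363 stayed and 74 moved. Depth limits the adult cells most, and a gene at 0 in the adult esophagus could still be at 130 CPM.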
